A study of Homo sapiens with 12 samples.

Results

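The genes described here encode the NF-kB transcription factor subunits (NFKB1, NFKB2, RELA, RELB and REL) and 5 proteins that restrain or redirect them (NFKBIA, NFKBIE, NFKBIZ, BCL3 and TNFAIP3). They were taken by gene name from the 2 deposited expression tables and joined by gene identifier, which gave 10 of 10 genes among 60630 identifiers present in both tables. RNA was sequenced from SZ95 sebocytes, a human sebaceous gland cell line immortalised with a viral large T antigen, in 4 groups of 3 libraries. These were PGN+RVT against PGN alone, and LA+RVT against LA alone. RVT is resveratrol, a plant polyphenol named in the series title, while PGN and LA are read here as bacterial peptidoglycan and linoleic acid, which the labels do not spell out. All groups are of the same line and no library was left without a stimulus, so what PGN or LA did by itself was not measured; the sources used here state neither dose nor time. The questions asked were whether resveratrol moved the NF-kB genes under the inflammatory stimulus, whether it did so under the lipid stimulus, and whether the 2 effects differed. The replicates are called biological in the design text, with no word on separate culture days, so the p-values reflect variation among these 12 libraries and no wider source.

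NF-kB proteins work as dimers held in the cytoplasm by inhibitors of the IkB family until a receptor, such as one that senses bacterial cell wall, sets off the IkB kinases. The inhibitor is then degraded, the dimer enters the nucleus, and among the genes it switches on are those for NF-kB subunits and for its own inhibitors, which closes a negative feedback loop. RELA, RELB and REL carry transactivation domains, whereas NFKB1 and NFKB2 encode precursors that are cut to DNA-binding subunits without one. NFKBIA and NFKBIE encode cytoplasmic inhibitors, NFKBIZ and BCL3 encode nuclear relatives of the IkB proteins that can also coactivate genes, and TNFAIP3 encodes a ubiquitin-editing enzyme that shuts the pathway off upstream of the kinases. RNA levels of these genes do not measure NF-kB activity.

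On GRCh38, by the GENCODE 29 annotation, all 10 genes are protein-coding. NFKB1 (ENSG00000109320) lies on chromosome 4 from 102501329 to 102617302 and NFKB2 (ENSG00000077150) on chromosome 10 from 102394110 to 102402529. RELA (ENSG00000173039) lies on chromosome 11 from 65653596 to 65663094 on the minus strand, and REL (ENSG00000162924) on chromosome 2 from 60881521 to 60931610. RELB (ENSG00000104856) spans 45001430 to 45038198 and BCL3 (ENSG00000069399) 44747705 to 44760044 on chromosome 19. NFKBIA (ENSG00000100906) lies on chromosome 14 from 35401511 to 35404749 on the minus strand, and NFKBIZ (ENSG00000144802) on chromosome 3 from 101827991 to 101861022. TNFAIP3 (ENSG00000118503) spans 137867188 to 137883312 and NFKBIE (ENSG00000146232, minus strand) 44258166 to 44265788 on chromosome 6. The genes without a named strand lie on the plus strand. The sources used here do not say if strand was used in assigning reads, and 3 members share bases with a second gene that had reads. ENSG00000267520, a non-coding gene on the strand of REL, shares 5702 bases with it, and the long non-coding gene WAKMAR2 shares 1046 bases with TNFAIP3 on the opposite strand. RELA shares 9 bases with RELA-DT, a non-coding gene on the opposite strand.

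RefSeq promoter windows (GRCh38.p14, 250 bases before to 50 after a start) were matched for 8 of the 10 genes, in 13 windows; RELB and NFKBIE had no entry. The kappa B consensus, the DNA element to which NF-kB dimers bind, was searched on both strands. Of these 8 genes, 7 held it in at least 1 window, as did 7.09% of all 27305 genes with such windows. Counted by window, 9 of the 13 held a match, as did 5.91% of all 35116 windows. RELA had no match in its 2 windows, and neither had the second NFKB1 window or the first NFKB2 window. The 150 bases before a start are printed for the genes on which the results turn, 5 with a match and RELA without one, so that the elements can be read beside the values below; capitals mark matches to the consensus, and each sequence is given on the strand of its gene. They lie at chr6:137867109-137867258 for TNFAIP3 (plus strand), chr14:35404750-35404899 for NFKBIA (minus strand), chr4:102501209-102501358 for the first of the NFKB1 starts (plus strand), chr10:102394428-102394577 for the second NFKB2 start (plus strand), chr2:60881424-60881573 for REL (plus strand) and chr11:65662917-65663066 for the second RELA start (minus strand).
TNFAIP3: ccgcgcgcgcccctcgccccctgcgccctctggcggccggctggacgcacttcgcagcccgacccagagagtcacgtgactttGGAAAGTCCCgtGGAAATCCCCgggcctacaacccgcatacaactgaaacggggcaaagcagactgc
NFKBIA: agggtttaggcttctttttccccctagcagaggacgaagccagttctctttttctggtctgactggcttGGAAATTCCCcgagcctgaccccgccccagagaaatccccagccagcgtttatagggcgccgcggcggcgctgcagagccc
NFKB1: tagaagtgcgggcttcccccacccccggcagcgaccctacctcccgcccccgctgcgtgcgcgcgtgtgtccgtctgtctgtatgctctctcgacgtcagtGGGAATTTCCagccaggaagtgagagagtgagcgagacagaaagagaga
NFKB2: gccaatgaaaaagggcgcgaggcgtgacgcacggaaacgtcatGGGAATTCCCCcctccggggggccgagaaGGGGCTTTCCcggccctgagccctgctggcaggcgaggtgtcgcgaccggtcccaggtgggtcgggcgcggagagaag
REL: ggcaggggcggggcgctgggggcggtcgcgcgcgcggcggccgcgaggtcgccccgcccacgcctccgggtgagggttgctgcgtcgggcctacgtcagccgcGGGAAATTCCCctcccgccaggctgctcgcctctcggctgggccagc
RELA: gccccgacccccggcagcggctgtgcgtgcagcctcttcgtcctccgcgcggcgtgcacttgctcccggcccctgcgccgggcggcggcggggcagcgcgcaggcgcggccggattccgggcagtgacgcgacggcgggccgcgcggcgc

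TNFAIP3 held 2 neighbouring matches, beginning 67 and 55 bases before its start, and NFKBIA held GGAAATTCCC 81 bases before its start. NFKB1 held GGGAATTTCC 49 bases before its start. The same letters stood 223 bases before the first NFKBIZ start, outside the stretch printed. The BCL3 match, GGGAAGTCCC, also lay outside it, just past the start. A match says that these letters are present and no more.

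Most of the NF-kB genes were lower with RVT under PGN. Of the 10 genes, 8 fell and 0 rose (adjusted p under 0.05, limma with Benjamini-Hochberg adjustment over 14622 genes tested), where 4.92% of all tested genes were called lower, 10.6% higher and 15.6% in either direction. All 3 PGN+RVT libraries lay below all 3 PGN libraries for 10 of 10 genes, where 11.4% of tested genes showed this and 24.7% showed the reverse. The median log2 fold change was -0.95 over the 5 inhibitors and regulators and -0.49 over the 5 subunits, beside 0.06 over all tested genes. Levels are TPM, which is scaled for transcript length and for the total of the library, and every one of the 10 genes averaged at least 1 TPM, the limit set for testing. Log2 fold changes were computed from log2(TPM + 1), so those of weakly expressed genes come out too small, and ± after them is the limma standard error (SE). In a bulk culture, a fall in fewer cells and a smaller fall in all cells cannot be told apart.

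Among the inhibitors, TNFAIP3, which removes activating ubiquitin chains above the IkB kinases, fell furthest. It stood at 30.4, 27.0 and 28.5 TPM in the PGN+RVT libraries, against 81.3, 75.8 and 68.6 TPM in the PGN libraries. The lowest PGN library was more than 2 times as high as the highest PGN+RVT library. On average TNFAIP3 fell by 61.9% (log2 fold change -1.36 ± 0.078 SE, adjusted p = 0.000153). The overlapping WAKMAR2 averaged 1.37 ± 0.411 TPM with PGN+RVT and 2.56 ± 0.309 TPM with PGN (SD, n = 3 each; adjusted p = 0.0649), a small amount beside TNFAIP3.

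NFKBIA, the inhibitor that is degraded and remade first in the feedback loop, stood at 57.0, 58.8 and 55.6 TPM in the PGN+RVT libraries, against 118, 109.9 and 107 TPM in the PGN libraries. The groups were far apart for the spread within them. NFKBIA fell by 48.7% (log2 fold change -0.95 ± 0.053, adjusted p = 0.000145). NFKBIE, a second cytoplasmic inhibitor, which acts on RELA and REL dimers, stood at 15.7, 14.3 and 14.7 TPM with PGN+RVT, against 26.9, 29.1 and 24.5 TPM with PGN. It fell by 44.5% (log2 fold change -0.81 ± 0.080, adjusted p = 0.00124).

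Both nuclear members of the family fell as well. BCL3, which binds dimers of the NFKB1 and NFKB2 products, stood at 26.5, 27.9 and 35.6 TPM in the PGN+RVT libraries, against 55.7, 64.1 and 58.3 TPM in the PGN libraries. PGN+RVT replicate 3 was the highest of its group and still well under every PGN library. BCL3 fell by 49.5% (log2 fold change -0.97 ± 0.11, adjusted p = 0.00241). NFKBIZ, a coactivator of secondary inflammatory genes such as IL6, stood at 13.2, 11.6 and 14.4 TPM with PGN+RVT, against 24.1, 22.8 and 22.7 TPM with PGN. It fell by 43.6% (log2 fold change -0.78 ± 0.087, adjusted p = 0.00192).

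Of the subunits, NFKB1 had the largest fall under PGN. It stood at 27.3, 24.9 and 26.0 TPM in the PGN+RVT libraries, against 42.5, 40.5 and 40.7 TPM in the PGN libraries, a fall by 36.8% (log2 fold change -0.64 ± 0.058, adjusted p = 0.000857). The libraries of each group lay within 3 TPM of each other. RELB, the partner of the NFKB2 product in the alternative pathway, stood at 17.0, 15.9 and 13.7 TPM with PGN+RVT, against 23.4, 25.4 and 23.5 TPM with PGN. It fell by 35.6% (log2 fold change -0.61 ± 0.089, adjusted p = 0.00569). NFKB2 itself stood at 59.4, 60.6 and 54.1 TPM with PGN+RVT, against 72.6, 78.5 and 83.8 TPM with PGN, and fell by 25.9% (log2 fold change -0.43 ± 0.071, adjusted p = 0.00917). These were the 3 subunit genes called.

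RELA, the main transactivating subunit of the classical pathway, was the gene of the group with the smallest difference. It stood at 105, 105 and 104 TPM in the PGN+RVT libraries, against 107, 108 and 125 TPM in the PGN libraries. The groups did not overlap, but apart from PGN replicate 3 they were separated by a few TPM. The log2 fold change of -0.11 had a 95% interval from -0.27 to 0.04 (adjusted p = 0.283), so a fall of the size seen for NFKB1 lay outside it. REL, a subunit best known from lymphocytes, was the least abundant. It stood at 3.18, 2.66 and 3.58 TPM with PGN+RVT, against 5.47, 4.73 and 4.24 TPM with PGN (log2 fold change -0.49 ± 0.14, adjusted p = 0.0501). REL thus narrowly missed the threshold, and 4 of 12 alternative settings called it lower, while its adjusted p over them ranged between 0.00888 and 0.151. The non-coding gene that overlaps REL on the same strand averaged 3.82 ± 0.211 TPM with PGN+RVT and 5.86 ± 0.707 TPM with PGN (adjusted p = 0.0247), so the share of reads that belongs to each is uncertain.

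**Figure D1:**
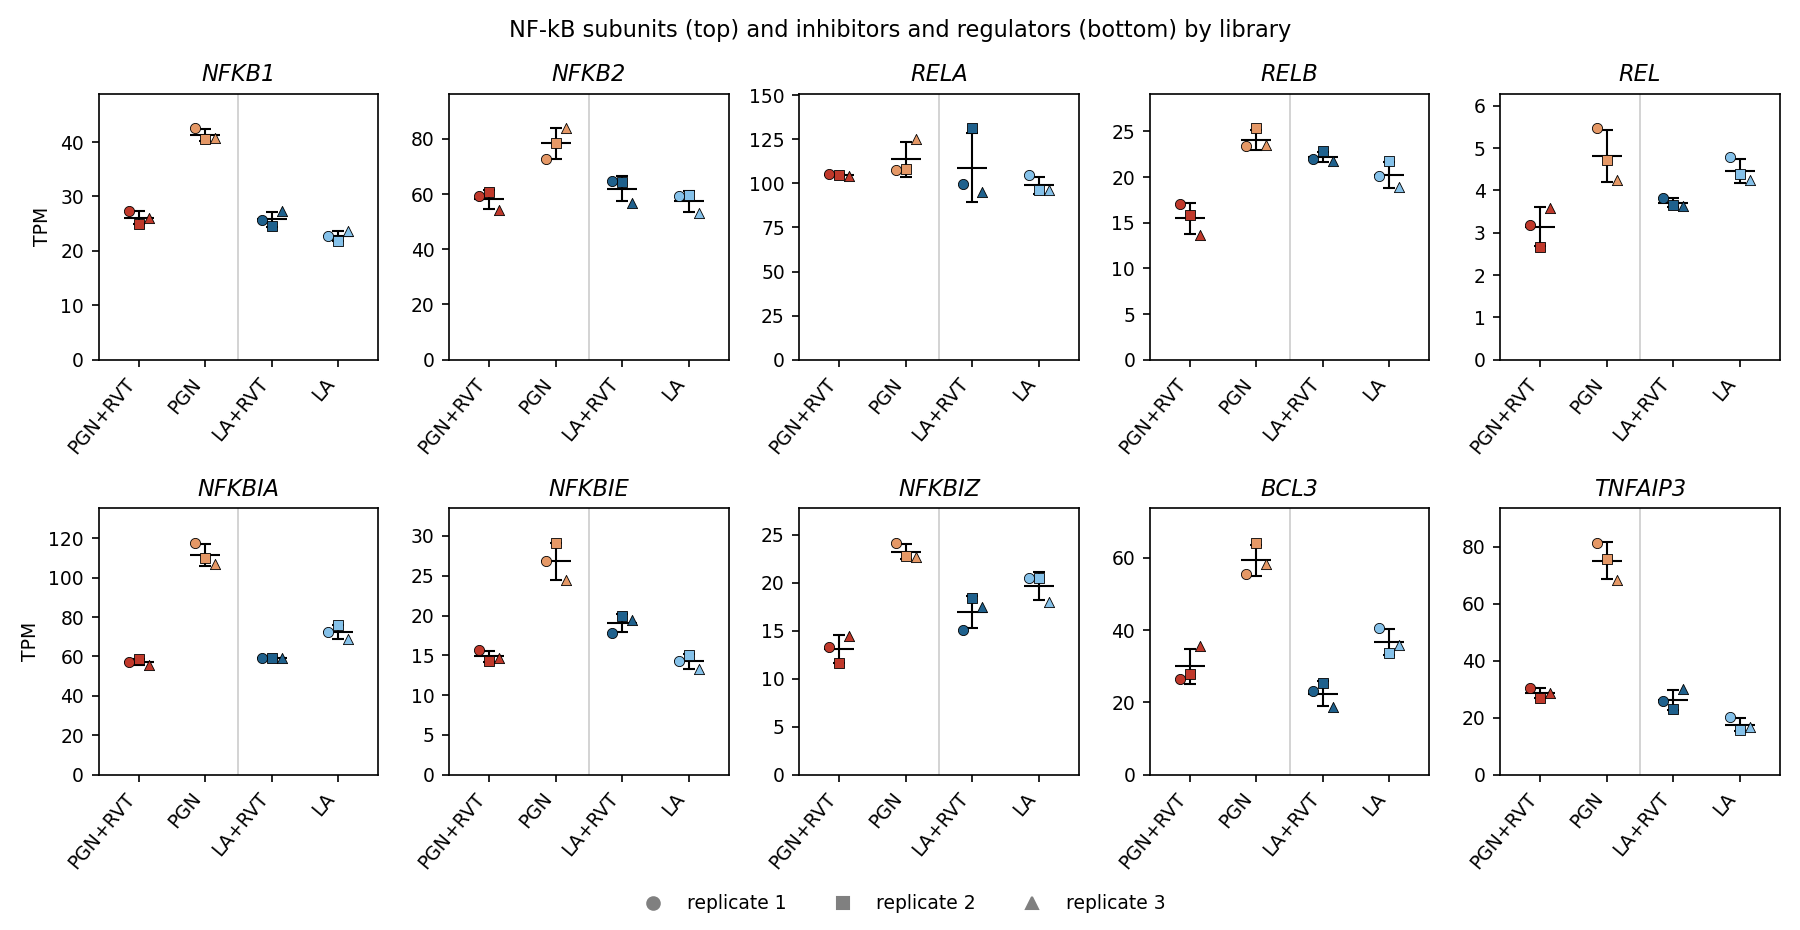
TPM of each of the 10 genes (vertical axes, starting at 0) in the 12 libraries, grouped as PGN+RVT, PGN, LA+RVT and LA along the horizontal axes. Marks are libraries (their shape gives the replicate number), and black bars give the mean ± SD of 3. The PGN mean is the highest of the 4 in 10 of 10 genes (14.7% of 15177 tested genes), and RELA has the smallest percent change of the 10 with PGN+RVT.

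Under LA fewer of the 10 genes were called with RVT, and they moved in both directions. Of the 10, 2 rose (TNFAIP3 and NFKBIE) and 2 fell (BCL3 and NFKBIA), and 6 were not called, where 10.7% of 15409 tested genes were called higher 5.07% lower and 15.7% in either direction. Groups did not overlap for 4 genes higher and 3 lower with LA+RVT, where 23.4% and 12.8% of tested genes showed this. Over the 10 genes the median log2 fold change was 0.12, beside 0.04 over all tested genes. The calls were all among the inhibitors and regulators; 0 of 5 subunit genes passed.

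TNFAIP3 was higher with RVT under LA, the reverse of its fall under PGN. It stood at 25.7, 23.1 and 30.0 TPM in the LA+RVT libraries, against 20.3, 15.6 and 16.9 TPM in the LA libraries, with no overlap. It rose by 49.4% on average (log2 fold change 0.55 ± 0.12, adjusted p = 0.0270). This call was lost without LA replicate 2 or 3 and without LA+RVT replicate 1 or 3 (adjusted p from 0.0667 to 0.0836). The call was also lost without a filter on low values (adjusted p = 0.0710). NFKBIE stood at 17.9, 19.9 and 19.4 TPM with LA+RVT, against 14.3, 15.1 and 13.3 TPM with LA. It rose by 34.0% (log2 fold change 0.40 ± 0.071, adjusted p = 0.0126) and was called under 13 of 13 alternatives.

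BCL3 and NFKBIA fell with RVT under LA too. BCL3 stood at 23.0, 25.5 and 18.8 TPM in the LA+RVT libraries, against 40.6, 33.6 and 35.9 TPM in the LA libraries. It fell by 38.8% (log2 fold change -0.69 ± 0.12, adjusted p = 0.0112). NFKBIA stood at 59.0, 59.2 and 59.0 TPM with LA+RVT, against 72.2, 75.8 and 69.0 TPM with LA, a fall by 18.3% (log2 fold change -0.29 ± 0.043, adjusted p = 0.00662). The LA+RVT libraries were nearly level for NFKBIA. NFKBIZ stood at 15.1, 18.4 and 17.4 TPM with LA+RVT, against 20.5, 20.5 and 18.0 TPM with LA, and the groups overlapped (log2 fold change -0.20 ± 0.090, adjusted p = 0.179).

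None of the 5 subunit genes was called between LA+RVT and LA, although the libraries of NFKB1 and RELB were higher and those of REL lower with LA+RVT without overlap. NFKB1 stood at 25.6, 24.5 and 27.3 TPM in the LA+RVT libraries, against 22.7, 21.8 and 23.7 TPM in the LA libraries (log2 fold change 0.18 ± 0.060, adjusted p = 0.0975). RELB averaged 22.2 ± 0.571 TPM with LA+RVT and 20.2 ± 1.41 TPM with LA (SD, n = 3 each; adjusted p = 0.223). NFKB2 averaged 61.9 ± 4.57 TPM with LA+RVT and 57.3 ± 3.77 TPM with LA (adjusted p = 0.353). REL averaged 3.71 ± 0.104 TPM with LA+RVT and 4.47 ± 0.280 TPM with LA (adjusted p = 0.193). RELA stood at 99.9, 131 and 95.2 TPM with LA+RVT, against 105, 96.2 and 96.0 TPM with LA (log2 fold change 0.12 ± 0.12, adjusted p = 0.535). LA+RVT replicate 2 stood apart from the other libraries there, and without it the log2 fold change of RELA was -0.019 (no longer above 0, adjusted p = 0.85). The overlapping RELA-DT was also highest in that library, at 7.77 TPM beside 4.77 and 3.62 TPM in the other LA+RVT libraries; the part of this in the RELA value was not tested.

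The difference between the RVT effects was tested as an interaction over 12 libraries, as the effect under PGN minus the effect under LA. It was called for 7 of 10 genes, and in each the RVT effect was lower under PGN, where 7.03% of 15177 tested genes were called in that direction, 7.73% in the other and 14.8% in either. Each stimulus has its own table, so an effect of the stimulus cannot be told apart here from another difference between the 2 sets of libraries. The largest difference was that of TNFAIP3 (-1.91 ± 0.15 on the log2 scale, adjusted p = 1.95e-05), followed by NFKBIE (-1.20 ± 0.11, adjusted p = 3.59e-05). NFKB1 differed by -0.82 ± 0.079 (adjusted p = 7.04e-05) and RELB by -0.74 ± 0.11 (adjusted p = 0.00131). NFKBIA, which fell under both stimuli, differed by -0.66 ± 0.066 (adjusted p = 7.93e-05). NFKBIZ differed by -0.58 ± 0.13 (adjusted p = 0.0114) and NFKB2 by -0.53 ± 0.10 (adjusted p = 0.00598).

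The 3 genes without a called difference were BCL3, REL and RELA. BCL3 fell under both stimuli, and the difference of its effects was -0.28 with a 95% interval from -0.67 to 0.11 (adjusted p = 0.338). That of REL was -0.28 (interval -0.62 to 0.07, adjusted p = 0.286) and that of RELA -0.24 (interval -0.55 to 0.08, adjusted p = 0.320). These intervals leave room for differences of more than 0.5 on the log2 scale. Called in opposite directions by the separate fits were 2 genes, TNFAIP3 and NFKBIE, where 0.75% of 14126 genes tested in both were called lower under PGN and higher under LA. Called lower in both fits were NFKBIA and BCL3, where 1.2% of these genes were.

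**Figure D2:**
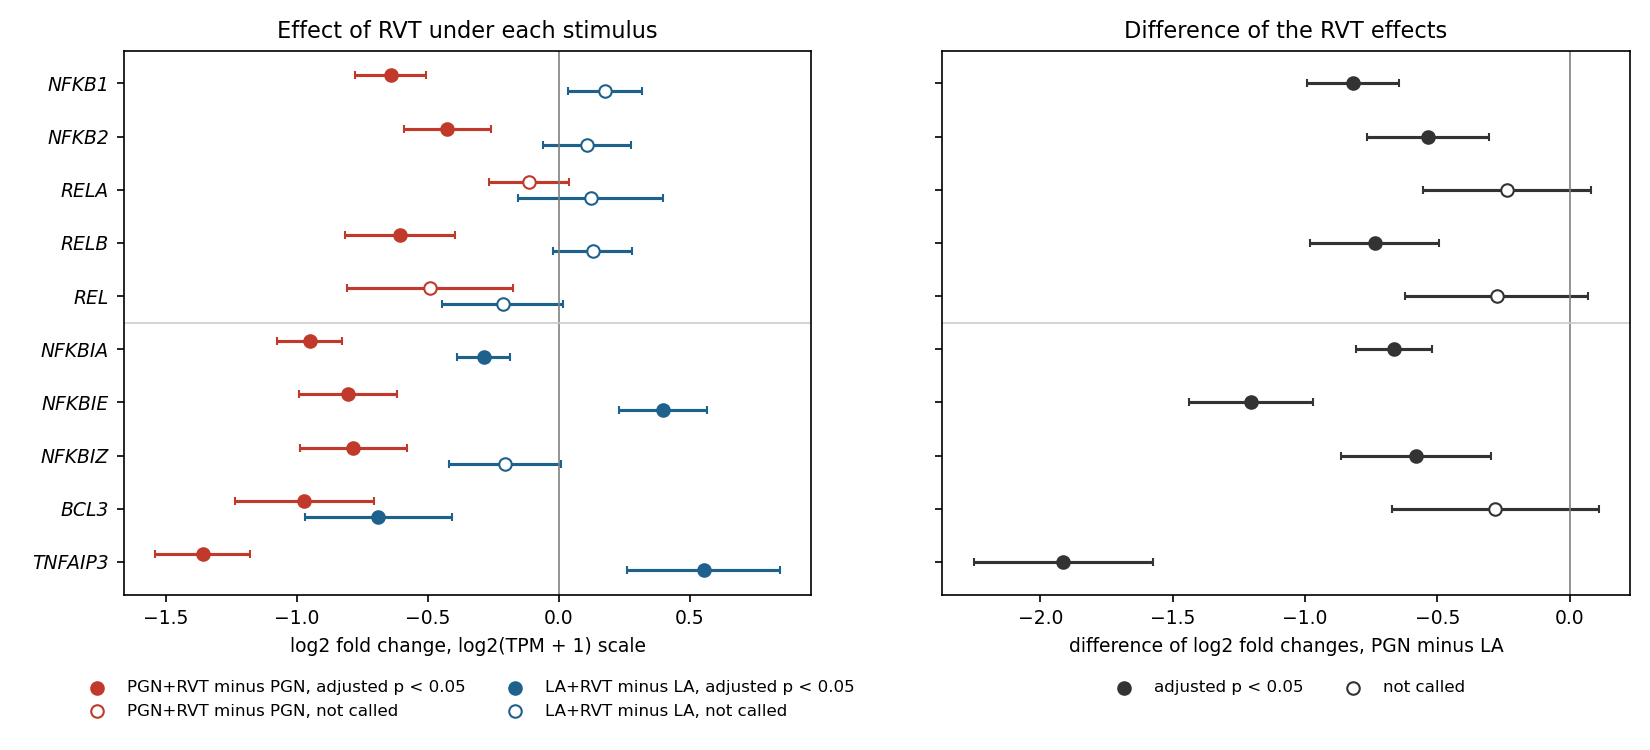
Left, log2 fold change of each gene with RVT under PGN (red) and under LA (blue), on the log2(TPM + 1) scale; right, the difference of the 2 effects, PGN minus LA. Bars are 95% intervals of the limma fits and filled marks passed an adjusted p of 0.05. All red marks lie left of 0, TNFAIP3 and NFKBIE have filled marks on both sides, and BCL3, REL and RELA have intervals across 0 on the right.

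Set side by side, the RVT groups stood near each other under both stimuli for some of these genes and apart for others. NFKBIA averaged 57.1 ± 1.60 TPM with PGN+RVT and 59.1 ± 0.123 TPM with LA+RVT. NFKB1 averaged 26.1 ± 1.22 TPM with PGN+RVT and 25.8 ± 1.39 TPM with LA+RVT, and TNFAIP3 28.7 ± 1.72 TPM with PGN+RVT and 26.3 ± 3.51 TPM with LA+RVT (SD, n = 3 each). For RELB, NFKBIE, NFKBIZ, REL and BCL3 the PGN+RVT and LA+RVT libraries did not overlap, nor did those of NFKBIA, close as they were. The share of all tested genes without such overlap was not computed, so the separation cannot be read as particular to these genes. RELB averaged 15.5 TPM with PGN+RVT and 22.2 TPM with LA+RVT, and NFKBIE 14.9 TPM with PGN+RVT and 19.1 TPM with LA+RVT. NFKBIZ averaged 13.1 TPM with PGN+RVT and 17.0 TPM with LA+RVT, and REL 3.14 TPM with PGN+RVT and 3.71 TPM with LA+RVT. Of the genes without overlap, BCL3 alone stood higher with PGN+RVT, at 30.0 TPM, against 22.5 TPM with LA+RVT. In 8 of 10 genes, all but REL and RELA, every PGN library was above every library of the other 3 groups, where 4.63% of 15177 tested genes showed this. Levels in the PGN and LA tables were not tested against each other, because the tables differ in their gene annotation and each stimulus has its own table.

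The summed level was highest with PGN for both kinds of gene. The 5 inhibitor and regulator genes summed to 144 ± 4.69 TPM with PGN+RVT and 296 ± 13.2 TPM with PGN, and to 144 ± 2.76 TPM with LA+RVT and 160 ± 7.41 TPM with LA (SD, n = 3 each). The 5 subunit genes summed to 207 ± 5.61 TPM with PGN+RVT and 262 ± 13.7 TPM with PGN, and to 222 ± 21.9 TPM with LA+RVT and 204 ± 7.77 TPM with LA. The ratio of regulators to subunits, in TPM per library, lay between 0.668 and 0.740 with PGN+RVT and between 1.01 and 1.22 with PGN. It lay between 0.592 and 0.707 with LA+RVT and between 0.781 and 0.794 with LA. These sums weight the abundant genes most, above all RELA and NFKBIA. LA+RVT replicate 2, in which RELA stood apart, had the highest subunit sum of its group, 247 TPM beside 216 and 205 TPM. That library also gave the lowest ratio, 0.592.

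**Figure D3:**
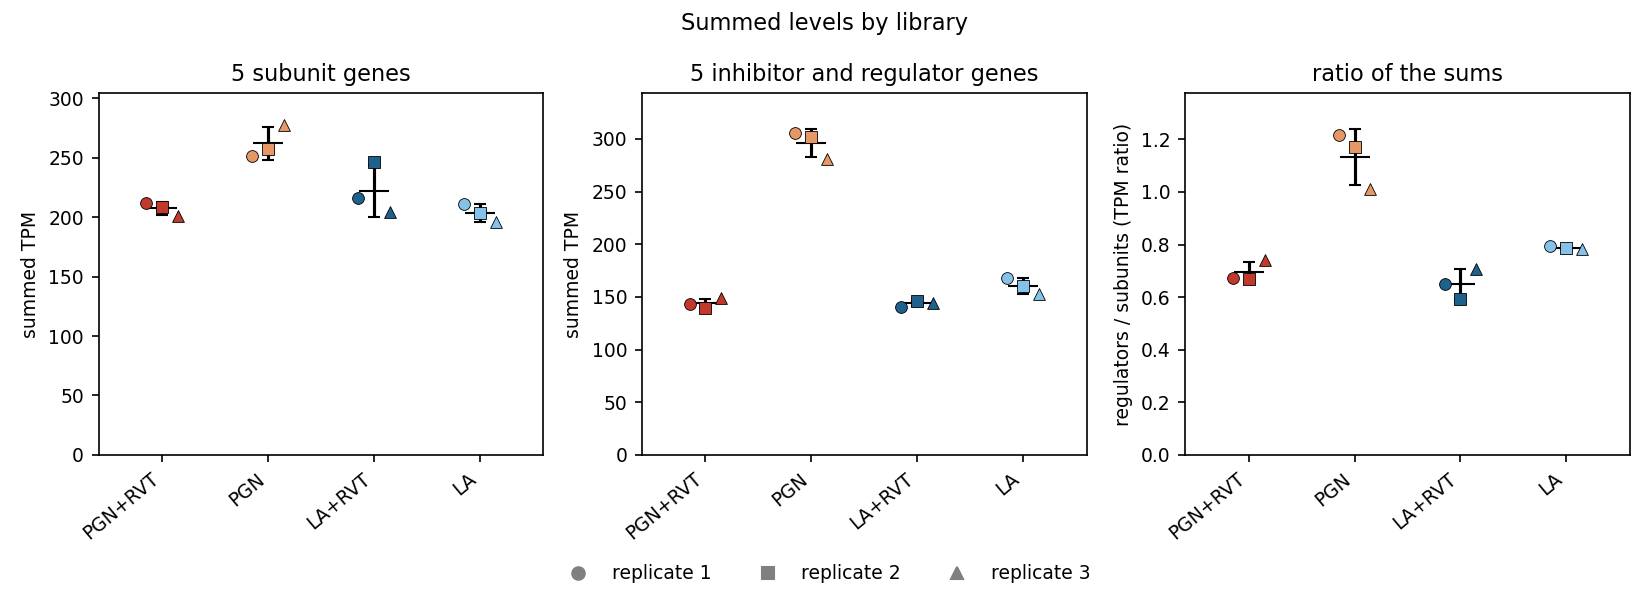
Summed TPM of the 5 subunit genes (left) and of the 5 inhibitor and regulator genes (middle), and the ratio of the second to the first (right), in each library of PGN+RVT, PGN, LA+RVT and LA. Marks are libraries, bars are mean ± SD of 3, and axes start at 0. The PGN libraries are the highest in each panel, and their ratio alone exceeds 1.

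The make-up of the subunit pool can be read per length in TPM. RELA took the largest share of the summed subunit TPM in every group, at 50.5% ± 1.05 with PGN+RVT and 43.3% ± 1.60 with PGN, and at 48.7% ± 3.92 with LA+RVT and 48.6% ± 1.20 with LA. NFKB2 came second, at 28.0% ± 1.07 with PGN+RVT and 29.9% ± 0.870 with PGN. The share of NFKB1 was 12.6% ± 0.566 with PGN+RVT and 15.8% ± 1.12 with PGN. RELB held 7.47% ± 0.626 with PGN+RVT and 9.21% ± 0.690 with PGN, and REL 1.52% ± 0.254 with PGN+RVT and 1.85% ± 0.324 with PGN (SD, n = 3 each). A share rises when others fall, as the RELA share did.

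RELA led and REL trailed the order of levels, in TPM, in each of the 4 groups, and the middle ranks changed. With PGN+RVT the order was RELA, NFKB2, NFKBIA, BCL3, TNFAIP3, NFKB1, RELB, NFKBIE, NFKBIZ and REL. NFKB2 and NFKBIA overlapped there, as did BCL3 with TNFAIP3, TNFAIP3 with NFKB1, RELB with NFKBIE and NFKBIE with NFKBIZ. With PGN the order was RELA, NFKBIA, NFKB2, TNFAIP3, BCL3, NFKB1, NFKBIE, RELB, NFKBIZ and REL, so NFKBIA drew level with RELA (their libraries overlapped) and TNFAIP3 with NFKB2. NFKBIE, RELB and NFKBIZ overlapped as neighbours. With LA+RVT the order was RELA, NFKB2, NFKBIA, TNFAIP3, NFKB1, BCL3, RELB, NFKBIE, NFKBIZ and REL, with overlaps within the run of TNFAIP3, NFKB1, BCL3 and RELB, between NFKB2 and NFKBIA and between NFKBIE and NFKBIZ. With LA it was RELA, NFKBIA, NFKB2, BCL3, NFKB1, RELB, NFKBIZ, TNFAIP3, NFKBIE and REL, and there TNFAIP3 ranked eighth, overlapping NFKBIZ, which overlapped RELB.

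The list of pathway kinases with their adaptors and scaffolds held 12 genes. Of these, 0 rose and 3 fell under PGN, where 10.6% of all tested genes were called higher and 4.92% lower. Under LA 0 rose and 1 fell, where 10.7% were called higher and 5.07% lower. The median log2 fold change of the list was 0.01 in each comparison, beside 0.06 under PGN and 0.04 under LA over all tested genes. The core kinase subunits were not called under PGN or LA. CHUK averaged 16.0 ± 1.49 TPM with PGN+RVT and 15.3 ± 0.989 TPM with PGN (adjusted p = 0.722). It averaged 21.7 ± 2.03 TPM with LA+RVT and 17.9 ± 1.60 TPM with LA, without overlap (adjusted p = 0.0973). Of all tested genes, 23.4% were higher without overlap under LA. IKBKB averaged 16.2 ± 2.11 TPM with PGN+RVT and 14.6 ± 2.37 TPM with PGN (adjusted p = 0.509). IKBKG, the scaffold of the complex, averaged 29.3 ± 2.36 TPM with PGN+RVT and 27.9 ± 0.352 TPM with PGN (adjusted p = 0.597). Those that fell under PGN were MAP3K8, a kinase bound by the NFKB1 precursor (log2 fold change -0.49 ± 0.075, adjusted p = 0.00651), the IKK-related kinase gene IKBKE (-0.42 ± 0.073, adjusted p = 0.0108) and TANK, an adaptor of IKK-related kinases (-0.25 ± 0.061, adjusted p = 0.0343). MAP3K8 also fell under LA (-0.33 ± 0.072, adjusted p = 0.0266).

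Among adaptors and ubiquitin ligases, 20 of 21 genes were tested. Under PGN 0 rose and 2 fell, and under LA 2 rose and 1 fell, with median log2 fold changes of 0.09 under PGN and 0.08 under LA. Over all tested genes, 10.6% were called higher and 4.92% lower under PGN, and 10.7% higher and 5.07% lower under LA. In either direction the counts of the list are near the 15.6% and 15.7% of all genes called under PGN and LA. IRAK2, a kinase that relays Toll-like receptor signals, stood at 7.21, 7.50 and 6.95 TPM with PGN+RVT, against 22.5, 22.9 and 23.2 TPM with PGN (log2 fold change -1.54 ± 0.065, adjusted p = 3.42e-05). BIRC3, a ubiquitin ligase whose gene is itself an NF-kB target, stood at 37.8, 31.5 and 36.8 TPM with PGN+RVT, against 121, 97.7 and 106 TPM with PGN (log2 fold change -1.59 ± 0.098, adjusted p = 0.000217). Both genes had lower log2 fold changes than TNFAIP3, with no overlap of the groups. BIRC3 also fell under LA (-0.40 ± 0.051, adjusted p = 0.00376), where IRAK1 rose (0.36 ± 0.042, adjusted p = 0.00264) and so did UBE2V1, a cofactor in making ubiquitin chains (0.20 ± 0.027, adjusted p = 0.00492).

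Of 18 further inhibitors of the pathway, 17 were tested; 1 rose and 4 fell under PGN, and 0 rose and 1 fell under LA. Of all tested genes, 10.6% were called higher and 4.92% lower under PGN, and 10.7% higher and 5.07% lower under LA. The median log2 fold changes of the inhibitors were 0.04 under PGN and 0.08 under LA. TNIP1, the partner that brings the TNFAIP3 product to ubiquitin chains, stood at 285, 306 and 299.8 TPM with PGN+RVT, against 544, 555 and 568 TPM with PGN (log2 fold change -0.90 ± 0.039, adjusted p = 3.69e-05). ZC3H12A, an RNase that degrades cytokine messages, stood at 66.8, 64.5 and 60.1 TPM with PGN+RVT, against 160.1, 159 and 154 TPM with PGN (log2 fold change -1.29 ± 0.052, adjusted p = 2.44e-05). ZC3H12A fell under LA as well (-0.61 ± 0.062, adjusted p = 0.00165), whereas TNIP1 did not pass there (-0.05 ± 0.049, adjusted p = 0.568). The deubiquitinase gene CYLD (-0.39 ± 0.087, adjusted p = 0.0246) and the ubiquitin ligase gene ITCH (-0.24 ± 0.051, adjusted p = 0.0203) fell under PGN, and NLRX1, a mitochondrial NOD-like protein, rose (0.41 ± 0.093, adjusted p = 0.0261). NFKBIB, the third classical cytoplasmic IkB gene, averaged 27.1 ± 1.74 TPM with PGN+RVT and 27.4 ± 0.218 TPM with PGN (adjusted p = 0.896).

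Most target genes of NF-kB outside the group fell under PGN. Of 24 genes 22 were tested. Among them 3 rose and 17 fell, where 10.6% of all tested genes were called higher and 4.92% lower. The median log2 fold change was -1.03, beside 0.06 over all genes. CCL20, among those that fell, averaged 0.357 TPM with PGN+RVT and 11.9 TPM with PGN. It passed the limit of 1 TPM only through the PGN libraries. Under LA 21 were tested, 4 rose and 6 fell, where 10.7% of all tested genes were called higher and 5.07% lower, and the median was -0.12, beside 0.04 over all genes. SOD2, the mitochondrial superoxide dismutase, averaged 35.8 ± 1.83 TPM with PGN+RVT and 88.6 ± 2.19 TPM with PGN (log2 fold change -1.28 ± 0.055, adjusted p = 3.42e-05), about the step of TNFAIP3. The chemokine gene CXCL1 averaged 91.9 ± 4.78 TPM with PGN+RVT and 691 ± 70.5 TPM with PGN (-2.89 ± 0.079, adjusted p = 5.63e-06), and rose under LA (0.43 ± 0.083, adjusted p = 0.0165), as TNFAIP3 and NFKBIE did. The early response gene IER3 likewise fell under PGN (-1.05 ± 0.084, adjusted p = 0.000517) and rose under LA (0.26 ± 0.041, adjusted p = 0.00813). Targets did not all move one way: PTGES, a prostaglandin E synthase gene, rose under PGN (0.13 ± 0.033, adjusted p = 0.0405) and fell under LA (-0.55 ± 0.029, adjusted p = 0.000213). IRF1, a transcription factor, fell under PGN (-0.69 ± 0.061, adjusted p = 0.000832) and under LA (-0.52 ± 0.046, adjusted p = 0.000960), as BCL3 and NFKBIA did. The lists of the pathway were chosen with earlier results of these data known.

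**Figure D4:**
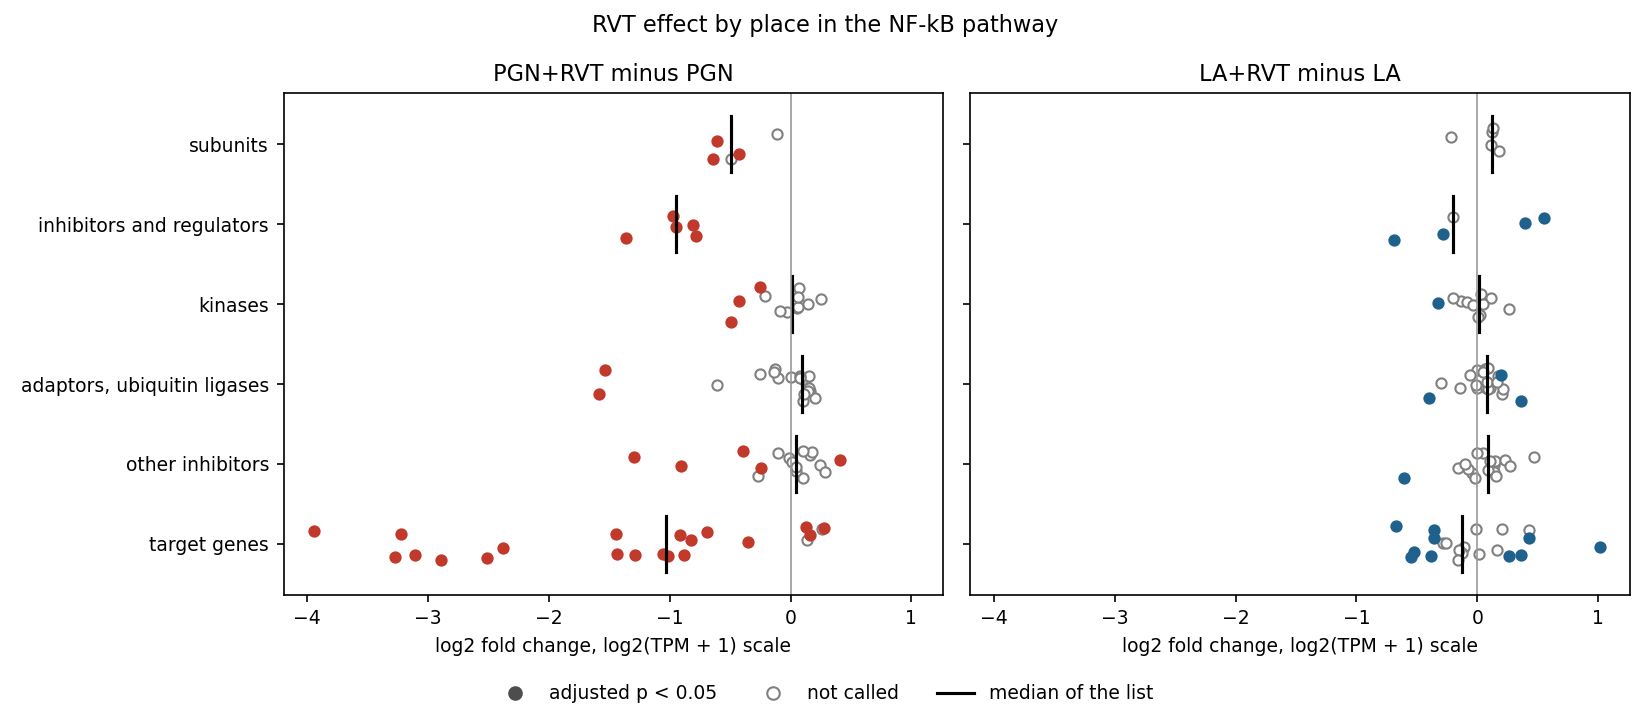
Log2 fold change with RVT (horizontal axis, log2(TPM + 1) scale) of each tested gene, by place in the NF-kB pathway, under PGN (left) and LA (right). Filled marks passed an adjusted p of 0.05 and black lines are medians of the lists. Under PGN the subunits, the inhibitors and regulators and the target genes have medians of -0.49, -0.95 and -1.03, and the other 3 lists have medians between 0.01 and 0.09.

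The profiles nearest to the 3 genes with the largest effect under PGN were found over 12 libraries, centred within each table, as the smallest root mean square distance on the log2(TPM + 1) scale among 15177 genes. For NFKBIA they were SLC7A5 (distance 0.0649), SERPINB2 (0.0710) and PHACTR3 (0.0763), where the profile of NFKBIA itself departed from its table means by 0.354. For BCL3 they were MMP2 (0.137), ADGRF1 (0.154) and GDA (0.163), beside a departure of 0.445. Among those of TNFAIP3 were THBS1 (0.181) and ETS1 (0.193), beside a departure of 0.533.

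Library totals lay between 994373 and 997060 TPM, with 14489 to 15452 genes at 1 TPM or more; TPM keeps no depth, so no counting interval can be given. The line carried epithelial markers: 14 of 18 sebaceous and epithelial markers averaged at least 1 TPM in each group, led by the keratin gene KRT8, while the sebaceous receptor gene MC5R was at 0 throughout. Of 10 leukocyte markers 1, CD14, averaged at least 1 TPM, and CD3E and AIF1 were at 0 in every PGN+RVT, LA+RVT and LA library. The summed level of the 10 was 3.05 to 4.56 TPM with PGN+RVT and 3.70 to 6.59 TPM with PGN, and 2.09 to 3.74 TPM with LA+RVT and 3.20 to 3.32 TPM with LA. Of 5 keratinocyte markers, 4 of which were found, the summed level was 39.6 to 42.5 TPM with PGN+RVT and 59.4 to 67.8 TPM with PGN, and 41.1 to 49.5 TPM with LA+RVT and 36.1 to 39.0 TPM with LA. Of 5 endothelial markers, only CDH5 averaged at least 1 TPM, and the summed level was 23.4 to 24.2 TPM with PGN+RVT and 24.8 to 26.5 TPM with PGN, and 7.24 to 8.11 TPM with LA+RVT and 17.5 to 18.0 TPM with LA. Of 7 fibroblast markers 2 averaged at least 1 TPM, and DCN was at 0 throughout; the summed level lay between 10.2 and 16.3 TPM over all libraries, and the RVT libraries lay within the range of those without RVT under each stimulus. Of 5 melanocyte markers 2 did, MITF and PMEL, and TYR was at 0 throughout. The summed level of the 5 was 29.7 to 31.1 TPM with PGN+RVT and 19.4 to 24.4 TPM with PGN, and 29.6 to 32.3 TPM with LA+RVT and 25.0 to 26.0 TPM with LA. PMEL averaged 9.51 ± 0.649 TPM with PGN+RVT and 5.85 ± 0.594 TPM with PGN (adjusted p = 0.00799), and MITF 20.5 ± 0.741 TPM with PGN+RVT and 16.2 ± 1.99 TPM with PGN (adjusted p = 0.0587). The part of these in the results was not tested.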

How the data were processed

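RNA of 12 libraries, 3 for each of PGN+RVT, PGN, LA+RVT and LA, was read from 2 tables in which the authors deposited TPM, 1 column per library, as the column names in the file headers show. The tools listed by the authors, per the submitters' processing notes, are RSEM 1.3.1, HISAT2 2.1.0 and DESeq2 1.24.0, and the build is GRCh38.p13; which step each served, and the annotation release, are not stated. TPM values are shares of a library, hold no depth, and shift when other genes shift. Values were transformed as log2(TPM + 1), genes averaging at least 1 TPM over the libraries of a fit were kept, and groups were compared in R 4.3.3 by two-sided limma 3.58.1 tests (variance prior with a trend, Benjamini-Hochberg over all tested genes, threshold 0.05), each arm on its 6 libraries and the interaction on 12. The fits were tested on simulated data with independent normal noise on the log2 scale. That test cannot show how the fits behave for linked libraries or for changes in weakly expressed genes. Genes and lists were chosen with earlier results of these data known. All 10 genes are described; from each pathway list at most 5 genes with the smallest adjusted p in a comparison are named, plus CHUK, IKBKB, IKBKG and NFKBIB, and the 3 nearest profiles for the 3 largest effects under PGN, of which 1 is not reported here. Among the targets, some genes with the smallest adjusted p are not named. RELA-DT, WAKMAR2 and ENSG00000267520 were named for their overlap with a member, and CCL20 for its place under the filter. Alternatives were another pseudocount, other filters, equalised library medians, a robust prior, a replicate block, 12-library fits and leaving out each library.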

Additional observations from a re-analysis of the deposited data

Results flagged for a closer look

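The effect of RVT differed between the stimuli by a test of the difference itself, PGN minus LA on the log2 scale, for 7 of the 10 genes. The difference was -0.82 for NFKB1, -0.53 for NFKB2 and -0.74 for RELB among the subunits. It was -0.66 for NFKBIA, -1.20 for NFKBIE, -0.58 for NFKBIZ and -1.91 for TNFAIP3 among the inhibitors and regulators. Each of these 7 differences was called under 18 of 18 alternatives. Stimulus and table go together here, so their parts in these differences cannot be told apart.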

How the results depend on the processing

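Most values of the 10 genes kept their call across the alternatives tried. Under PGN 125 of 129 values kept their direction and their side of the threshold, and the other 4 were those of REL, called lower with a pseudocount of 0.1 (adjusted p = 0.0457), equalised library medians (adjusted p = 0.0280), a robust prior (adjusted p = 0.0441) and the 12-library fit (adjusted p = 0.00888). Under LA 123 of 129 kept both; 5 were losses of the TNFAIP3 call, and RELA (0.12) turned to -0.019 without LA+RVT replicate 2, within a range up to 0.21 as each library was left out. All 179 values of the difference kept both. REL gave no value with a filter of 5 TPM. Members called ranged from 3 to 4 under LA when 1 library was left out, and 8 were called under PGN and 7 in the difference each time.

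Counts over all genes moved more. Under LA 2426 genes were called (1645 higher and 781 lower), 1610 without a filter and 1428 to 1690 without 1 library; the count moved by over 1.5 times without LA replicate 1 (1459), 2 (1428) or 3 (1463) or LA+RVT replicate 2 (1546). Under PGN 2277 were called (1557 higher and 720 lower), 1384 without a filter and 1095 to 1861 without 1 library; it moved that far without PGN replicate 2 (1236) or PGN+RVT replicate 1 (1095), 2 (1174) or 3 (1201). With equalised library medians the split was 1041 higher and 1080 lower under LA, and 850 and 1020 under PGN. With the replicate number as a block, 1502 genes were called under LA, 1574 under PGN and 1730 in the difference (2240 without the block), and 4, 8 and 7 members were called as before. Same-numbered libraries did not deviate together (correlations from -0.070 to 0.041). These correlations cannot tell if the libraries were paired in the experiment. Depth is unknown in TPM, which limits what can be said of REL, the lowest gene.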
